A study of Homo sapiens with 13 samples.

Results

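The RNA of 10 S100 genes was followed in H82 and H146 cells with and without FHD-286, an inhibitor of the ATPase activity of SMARCA4 and SMARCA2. The genes were *S100A2*, *S100A4*, *S100A6*, *S100A10*, *S100A11*, *S100A13*, *S100A14*, *S100A16*, *S100B* and *S100P*, taken by symbol from the 56831 genes of each table, and each was found once. H82 and H146 are established small cell lung cancer (SCLC) lines of neuroendocrine (NE) type, wild type by their labels; the study assigns H82 to the *NEUROD1* subtype. Untreated cells gave 3 libraries per line, and cells kept for 14 days in 100 nM FHD-286 gave 3 libraries for H82 and 4 for H146. Each line is a single cell line, and nothing in the labels says that the libraries of a group came from separate cultures, so *p* values measure the spread between these libraries, which may be technical. Values are TPM, transcript levels per gene length that sum to 1000000 in each library, so levels of different genes can be compared within a library. In bulk RNA, fewer cells that express a gene and less RNA per cell cannot be told apart.

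S100 proteins are small calcium-binding proteins with a pair of EF-hand motifs, and most of them act as dimers that dock onto a partner protein once calcium is bound. Inside cells they bind annexins, non-muscle myosin, ezrin and other parts of the membrane skeleton, and outside cells some of them act as ligands of the receptor AGER (RAGE). Most of the genes lie in a cluster on the long arm of human chromosome 1, on both sides of the genes for the outer layer of the skin, and many are used by epithelial and mesenchymal cells rather than by neurons.

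The libraries carried the marker RNA that their labels call for, with exceptions that touch the S100 results. Of 6 NE markers (*SYP*, *CHGA*, *INSM1*, *NCAM1*, *NEUROD1* and *DLL3*), 6 reached 1 TPM in every H82 library and 5 in every H146 library, where *NEUROD1* stayed under 1 TPM. The summed TPM of 6 epithelial markers (*EPCAM*, *CDH1*, *KRT8*, *KRT18*, *KRT7* and *KRT19*) ran from 2235 to 2405 in untreated and from 575 to 647 in treated H146, and from 1.62 to 3.73 in untreated H82. *CDH1* did not follow the fall of the sum in H146, with 60.8, 58.9 and 45.5 TPM untreated and 59.2, 90.2, 56.3 and 55.9 TPM treated. In treated H82 the sum was 15.7, 114 and 9.33 in replicates 1, 2 and 3. Replicate 2 thus stood apart from the other treated H82 libraries in these markers. Of 151 genes that had at least 20 TPM in every H146 library and under 1 TPM in every untreated H82 library, 108 reached 1 TPM in this library, against 58 and 44 in replicates 1 and 3. Whether replicate 2 holds some RNA of H146 cells was not tested, and the *S100A6* values, which it moves most, are given with and without it. The summed TPM of 5 fibroblast markers ran from 0.912 to 1.84 in untreated H82. In treated replicates 1, 2 and 3 it was 12.5, 7.05 and 33.9. *COL1A1* went the other way in replicate 2, at 0.141 TPM against 0.234, 0.343 and 0.271 TPM untreated. Mitochondrial genes took 22.1% to 24.1% of the TPM without and 12.3% to 14.9% with treatment. The part of these in the H82 results was not tested. Over 19770 genes it was replicate 1 that was least like the other treated H82 libraries. It correlated at *r* = 0.946 with replicate 2 and 0.952 with replicate 3, with 3419 and 3031 genes more than 2-fold apart. Replicates 2 and 3 correlated at 0.978, with 1083 genes that far apart. Treated H146 also held unlike libraries: replicates 3 and 4 correlated at *r* = 0.987 over 19585 genes, with 485 genes more than 2-fold apart, whereas replicates 2 and 4 correlated at 0.933, with 3386 genes that far apart. Between 15554 and 16633 genes reached 1 TPM in treated H82 and 21227 to 21772 in untreated H82, against 18778 to 19309 and 17476 to 17965 in H146.

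On hg38, 8 of the 10 genes lie on chromosome 1, all on the minus strand. *S100A10* (151982915 to 151993859) and *S100A11* (152032506 to 152047907) form one end of the cluster. The other end holds *S100A6* (153534599 to 153536244), *S100A4* (153543613 to 153550136), *S100A2* (153561108 to 153567890), *S100A16* (153606886 to 153613145), *S100A14* (153614255 to 153616986) and *S100A13* (153618787 to 153631360). *S100P* lies on chromosome 4 (6693878 to 6697170, plus strand) and *S100B* on chromosome 21 (46598604 to 46605208, minus strand). *S100A13* overlaps *S100A1* on the opposite strand and *S100A4* overlaps *S100A3* on the same strand. Whether reads were counted by strand is not given in the sources used here, so reads of such pairs may not have been told apart.

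The promoters of the members that moved most are shown with their CG dinucleotides, in which they differ. RefSeq start sites (GRCh38.p14) were matched for 9 of the 10 genes, with 13 windows of 250 bases upstream. Over all 35116 windows of this kind the median was 11 CG, with quartiles of 3 and 23. *S100A10* and *S100A6* each held 24, a number that 23.7% of all windows reach, and *S100A11* held 15. The window of *S100A14* held 4, that of *S100P* 4, and the windows of *S100A16* held 6 and 1. *S100A13* had 3 windows with 8, 10 and 15 CG, *S100A4* had 7, and *S100A2* had 3 and 4. The 120 bases before the start site are printed 5′ to 3′ with each CG in capitals, and for *S100A16* the window farthest upstream is given.
*S100A10*, chr1:151993860-151993979, minus strand: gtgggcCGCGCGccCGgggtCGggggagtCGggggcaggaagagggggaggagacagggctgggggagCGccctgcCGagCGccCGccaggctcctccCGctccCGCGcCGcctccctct
*S100A11*, chr1:152037005-152037124, minus strand: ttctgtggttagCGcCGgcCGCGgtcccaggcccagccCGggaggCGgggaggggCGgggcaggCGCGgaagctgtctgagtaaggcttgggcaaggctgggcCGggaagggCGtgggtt
*S100A6*, chr1:153535992-153536111, minus strand: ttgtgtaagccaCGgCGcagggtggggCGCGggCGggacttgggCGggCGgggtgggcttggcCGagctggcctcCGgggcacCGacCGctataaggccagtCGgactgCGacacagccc
*S100A16*, chr1:153613138-153613257, minus strand: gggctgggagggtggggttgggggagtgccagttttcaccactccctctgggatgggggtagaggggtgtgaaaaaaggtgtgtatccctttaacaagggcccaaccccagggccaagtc
*S100A14*, chr1:153616326-153616445, minus strand: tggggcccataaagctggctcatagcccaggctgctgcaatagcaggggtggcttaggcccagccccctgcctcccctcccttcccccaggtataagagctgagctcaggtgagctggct
*S100P*, chr4:6693758-6693877, plus strand: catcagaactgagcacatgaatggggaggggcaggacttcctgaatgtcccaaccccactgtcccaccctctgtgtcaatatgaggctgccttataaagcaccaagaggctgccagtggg
CG is frequent in the first 3 stretches and does not occur in the last 3, but this does not divide the members that rose from those that fell. The other stretch of *S100A16*, not printed, holds 5 CG, and the stretches of *S100A13*, which was lower in both lines, hold 11, 4 and 6, against 11 for *S100A11*. Of 3 motifs searched on both strands of the 250 bases, TATAAA was found in the windows of *S100A4* and *S100P* and in 1 window of *S100A13*, and in 10.7% of all windows. The AP-1 motif TGANTCA was found in 1 window of *S100A2* (6.57% of all windows) and the TEAD motif GGAATG in 1 window of *S100A16* (11.9%). These matches describe letters only.

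The lines differed in which S100 RNA they held before treatment. In untreated H82 *S100A16* was by far the most abundant, with 178 ± 13.4 TPM (SD, n = 3), followed by *S100A14* with 9.07 ± 0.408 TPM and *S100A13* with 8.73 ± 0.828 TPM, which did not differ beyond their spread. *S100A4*, *S100A11*, *S100A2*, *S100A6* and *S100P* had means between 1.85 and 4.80 TPM, and *S100A10* and *S100B* were at 0.274 ± 0.223 and 0.0883 ± 0.153 TPM. In untreated H146 *S100A6* led with 502 ± 72.9 TPM (SD, n = 3), then came *S100P* with 24.0 ± 5.52 TPM and *S100A4* with 7.07 ± 1.41 TPM. *S100A13*, *S100A11*, *S100A16* and *S100A2* followed between 2.14 and 3.66 TPM, with *S100A13* and *S100A11* within each other's spread, and *S100A14*, *S100B* and *S100A10* were each under 1 TPM on average. The lines were deposited as separate tables, and no test was run between their untreated levels.

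**Figure D1:**
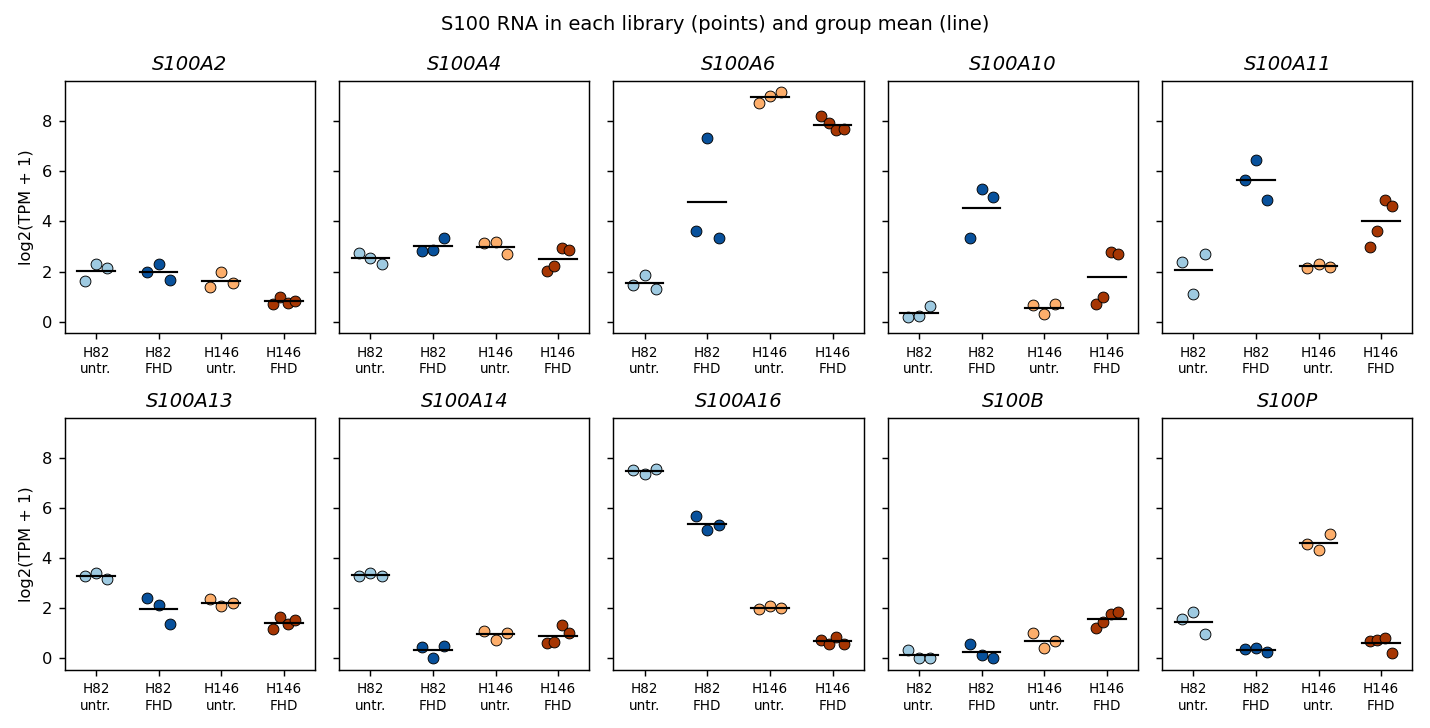
RNA level of each S100 gene as log2(TPM + 1), with points for single libraries of untreated (untr.) and FHD-286-treated (FHD) H82 (3 and 3 libraries) and H146 (3 and 4 libraries) and lines for group means. *S100A10* and *S100A11* lie higher with treatment in H82, *S100A6* moves in opposite directions in the lines, and treated H82 replicate 2 is the middle, highest point for *S100A6*.

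The annexin partners *S100A10* and *S100A11* were higher in treated H82. *S100A10*, which lacks calcium binding and forms a complex with annexin A2 that holds plasminogen activators at the cell surface, was at 0.124, 0.168 and 0.531 TPM in the untreated libraries and at 9.06, 38.4 and 30.9 TPM in the treated ones. Every treated library lay far above every untreated one, and the lowest treated value was that of replicate 1. Its log2 fold change (log2FC) was 4.21 (standard error, SE, 0.50, limma adjusted *p* = 0.000629), on the log2(TPM + 1) scale used for every fold change here, which understates the change of low genes. This was the 21st largest rise among 19770 tested genes. *S100A10* passed the filter on low values only through its treated libraries. In H146 it stayed low in the first pair of treated libraries (0.641 and 0.966 TPM) and reached 5.84 and 5.45 TPM in replicates 3 and 4, against 0.563, 0.249 and 0.622 TPM without treatment. All treated values were above all untreated ones, but those of replicates 1 and 2 by little. With only 2 libraries at 1 TPM it was below the filter there, and the difference of 1.23 gave *p* = 0.0571 in an exact two-sided permutation test. As the groups did not overlap, no other split of these libraries gives a lower value. The test thus could not pass the threshold and decides nothing about *S100A10* in H146.

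*S100A11*, the partner of annexin A1, was higher in both lines. In H82 it was at 4.23, 1.14 and 5.42 TPM without and at 49.2, 86.9 and 28.3 TPM with treatment. The groups were well apart, with a log2FC of 3.60 (SE 0.52, limma adjusted *p* = 0.00128) that ran from 3.13 to 3.997 with any 1 library left out. In H146 the untreated libraries held 3.41, 3.95 and 3.59 TPM and the treated ones 6.95, 11.1, 28.2 and 23.6 TPM. Here too the groups did not overlap, and replicates 3 and 4 were again the higher ones. The log2FC was 1.80 (SE 0.42, limma adjusted *p* = 0.00841), and with any 1 library left out it ran from 1.52 to 2.15 and kept passing the threshold. Markers of other cell types also differed between replicates 3 and 4 and replicates 1 and 2, in both directions. The summed TPM of 5 immune markers was 20.03 and 18.4 against 10.9 and 9.46, with *CD14* at 10.9 and 10.5 TPM and *CD3E* under 0.1 TPM, and that of 5 fibroblast markers was 32.0 and 24.6 against 16.6 and 17.6. Of 4 basal squamous markers, *TP63* alone reached 1 TPM, at 7.12 and 7.06 TPM against 1.96 and 1.09. The sum of 5 glial and melanocytic markers went the other way, with 14.0 and 12.8 TPM against 32.7 and 45.0 TPM, and *LYZ* (2.19 and 1.25 against 2.68 and 2.41 TPM) and *COL1A1* (5.70 and 4.35 against 3.41 and 6.07 TPM) did not follow their lists. The part of these markers in the levels of *S100A10* and *S100A11* was not tested.

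*S100A6* (calcyclin), which binds the ubiquitin ligase adaptor CACYBP and marks proliferating and many epithelial cells, moved in opposite directions. In H82 it was at 1.78, 2.67 and 1.48 TPM without treatment and at 11.4, 158 and 9.19 TPM with it. The groups did not overlap, yet replicate 2 was more than 10 times above the other treated libraries. The log2FC was 3.22 (SE 0.99, limma adjusted *p* = 0.0267). Without treated replicate 2 it was 1.94 (limma adjusted *p* = 0.00249). The call was lost without untreated replicate 1, 2 or 3 (limma adjusted *p* = 0.0696, 0.0722 and 0.0727) and with no filter on low values (0.0559). *INSM1* and *KRT19*, both abundant in H146, stood out in the same library, at 296 TPM against 32.1 and 33.9 TPM and at 50.2 TPM against 1.43 and 1.15 TPM. How much of the *S100A6* value of that library goes with these genes was not tested, while both other treated libraries lay above all untreated ones. In H146 *S100A6* was lower with treatment, with 424, 513 and 568 TPM before and 295, 242, 201 and 205 TPM after. There was no overlap, and the log2FC was -1.09 (SE 0.17, limma adjusted *p* = 0.00129). It remained the most abundant of the 10 genes in treated H146, at 236 ± 43.5 TPM (SD, n = 4).

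*S100A16*, *S100A14* and *S100A13*, next to each other on the chromosome, were lower in treated H82. *S100A16*, a broadly used member that binds calcium at only one of its EF-hands, was at 182, 163 and 189 TPM without and at 50.2, 33.8 and 38.9 TPM with FHD-286. The fall was similar in each treated library, with a log2FC of -2.11 (SE 0.18, limma adjusted *p* = 0.000204). In H146 it was a low gene that became lower, from 2.89, 3.27 and 3.08 TPM to 0.646, 0.501, 0.820 and 0.471 TPM. The groups were apart and the log2FC was -1.35 (SE 0.17, limma adjusted *p* = 0.000459), for a gene that passed the filter there only through its untreated libraries.

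*S100A14*, a member found mainly in epithelia, was nearly lost from H82. It was at 8.86, 9.54 and 8.82 TPM in untreated libraries and at 0.374 and 0.3995 TPM in treated replicates 1 and 3, and it was listed at 0 in treated replicate 2. No treated library reached 1 TPM, so the gene was tested only because it was present before treatment. Its log2FC was -3.02 (SE 0.21, limma adjusted *p* = 0.000139). The untreated H146 libraries held 1.13, 0.676 and 1.03 TPM and the treated ones 0.516, 0.584, 1.51 and 1.02 TPM. These groups overlapped widely and the log2FC was -0.051 (SE 0.23), with a limma adjusted *p* of 0.868.

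*S100A13*, which takes part in the release of FGF1 and IL1A from cells, was lower in both lines. Its levels in H82 were 8.65, 9.60 and 7.94 TPM without and 4.37, 3.32 and 1.61 TPM with treatment. The treated libraries spread widely but all lay under the untreated ones, for a log2FC of -1.31 (SE 0.29, limma adjusted *p* = 0.00734). Scaled between libraries by quantile normalization it was -0.43 and not past the threshold (limma adjusted *p* = 0.193). In H146 the values went from 4.09, 3.29 and 3.59 TPM to 1.24, 2.16, 1.60 and 1.85 TPM, again without overlap, and the log2FC was -0.79 (SE 0.18, limma adjusted *p* = 0.00821). *S100A1*, which overlaps it on the other strand, fell in H82 from 3.999 ± 0.211 to 0.553 ± 0.217 TPM (SD over 3 libraries each), a log2FC of -1.70 (limma adjusted *p* = 0.000548) for a gene tested only because of its untreated libraries. In H146 it was under 1 TPM with and without treatment.

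*S100P*, a ligand of AGER that also binds and activates ezrin, was the second most abundant member in untreated H146 and nearly vanished with treatment. The untreated libraries held 23.0, 19.0 and 29.9 TPM and the treated ones 0.601, 0.666, 0.754 and 0.156 TPM. The log2FC of -4.01 (SE 0.22, limma adjusted *p* = 9.00e-06) was the 49th largest fall among 19585 tested genes. *S100P* passed the filter there only through its untreated libraries. In H82 it was at 1.95, 2.63 and 0.960 TPM without and at 0.280, 0.325 and 0.199 TPM with treatment. All 3 treated values were under the untreated ones, but the gene was below the filter, and the difference of -1.12 gave *p* = 0.1 in an exact two-sided permutation test, the lowest that these libraries allow.

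*S100B*, known as a marker of glial cells and melanocytes and a ligand of AGER, rose in H146 from 0.9998, 0.331 and 0.603 TPM to 1.29, 1.76, 2.37 and 2.56 TPM. The groups did not overlap, although these are low levels, and the gene was tested only because of its treated libraries. The log2FC was 0.86 (SE 0.23, limma adjusted *p* = 0.0147), and the call was lost without untreated replicate 2 or 3 (limma adjusted *p* = 0.0696 and 0.0561) and with quantile normalization (0.0582). With the replicate number as a block the value was 0.77 (limma adjusted *p* = 0.0654). In H82 *S100B* was listed at 0 in 2 untreated and 1 treated library, with 0.265 TPM in the remaining untreated one and 0.495 and 0.0958 TPM in the remaining treated ones. That is below the filter, and no difference was detectable (difference 0.12, two-sided exact permutation test, *p* = 0.7).

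*S100A4*, which binds non-muscle myosin and is used by motile and mesenchymal cells, was not past the threshold in either line. Its values in H82 were 5.61, 4.81 and 3.99 TPM without and 6.06, 6.23 and 9.08 TPM with treatment. The treated libraries were all higher, by a log2FC of 0.47 (SE 0.22, limma adjusted *p* = 0.108), which became 0.89 under the median of ratios (0.0110) and 1.30 with quantile normalization (0.00272). In H146 the levels were 7.72, 8.05 and 5.45 TPM before and 3.11, 3.64, 6.70 and 6.25 TPM after treatment. The groups overlapped, with replicates 3 and 4 in the untreated range, and the log2FC was -0.48 (SE 0.27, limma adjusted *p* = 0.163). It became -0.76 with median of ratios scaling (0.0294) and -0.74 with quantile normalization (0.0431).

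*S100A2*, a member of basal epithelial cells, showed no difference beyond the spread in H82. It was at 2.08, 3.97 and 3.40 TPM without and at 2.90, 3.90 and 2.20 TPM with treatment, with a log2FC of -0.047 (SE 0.27, limma adjusted *p* = 0.892) that turned positive under the median of ratios (0.32, 0.346) and with quantile normalization (0.96, 0.0258). In H146 it was at 1.60, 2.94 and 1.89 TPM before and at 0.631, 0.951, 0.685 and 0.767 TPM after treatment. These groups were apart, for a log2FC of -0.82 (SE 0.20, limma adjusted *p* = 0.00997), and the gene passed the filter only through its untreated libraries.

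**Figure D2:**
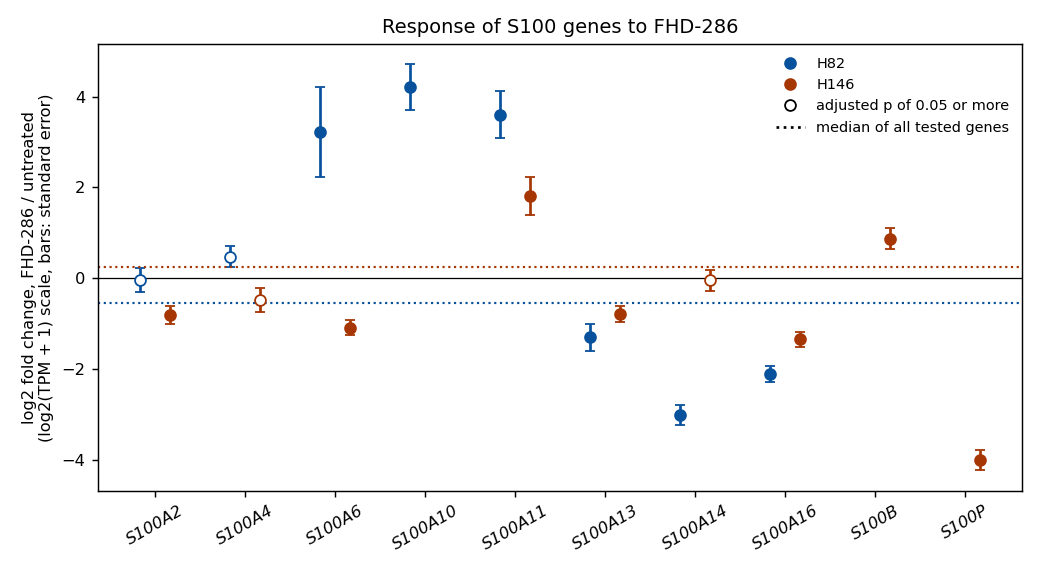
Log2FC of each S100 gene with FHD-286 on the log2(TPM + 1) scale in H82 (blue, 3 against 3 libraries) and H146 (brown, 4 against 3); bars are standard errors, open symbols did not pass the threshold, and members below the filter have no symbol. Dotted lines mark the median over the whole tested set, -0.56 for H82 and 0.25 for H146, so 0 is above the H82 line and below the H146 line.

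Of the 8 members tested in H82, 3 were higher (*S100A6*, *S100A10* and *S100A11*), where 13.1% of all tested genes were, and 3 were lower (*S100A13*, *S100A14* and *S100A16*), where 45.5% of all were. Groups that did not overlap were found for 4 members with treated libraries higher, a pattern of 16.4% of all tested genes, and for 3 with treated libraries lower, a pattern of 51.4%. The share of lower members was thus near or under the background. Of the 9 members tested in H146, 2 were higher (*S100A11* and *S100B*) against 32.5% of all genes, and 5 were lower (*S100A2*, *S100A6*, *S100A13*, *S100A16* and *S100P*) against 15.5%. The same 2 and 5 members had no overlap between groups, against 35.7% and 17.3% of all genes. The median log2FC of the tested members was 0.21 in H82, against -0.56 for all genes, and -0.79 in H146, against 0.25. As 2 members in H82 and 4 in H146 entered the tests through 1 group alone, these counts and medians are descriptions. Of the 7 members tested in both lines, *S100A11* was higher in both (4.83% of 15679 genes were), and *S100A13* and *S100A16* were lower in both (4.43%). *S100A6* was higher in H82 and lower in H146, as 2.3% of these genes were.

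The treatment effects were then compared between the lines by the interaction of line and treatment over all 13 libraries. The difference, H82 minus H146, was higher for 5 of the 10 members, where 13.3% of 24374 genes were higher, and lower for 2, where 46% were. It was 4.31 for *S100A6* (limma adjusted *p* = 0.00333) and 3.03 without treated H82 replicate 2. For *S100A10* the difference was 2.97 (limma adjusted *p* = 0.00714), and for *S100A14* it was -2.97 (limma adjusted *p* = 8.31e-06). *S100P* had a positive difference of 2.89 (limma adjusted *p* = 2.72e-05), since the larger fall was in H146, where it was abundant. *S100A10* and *S100B* reached 1 TPM in treated libraries only, and *S100P* in untreated ones only. These 3 members thus entered the test through treated or untreated libraries alone, and their differences and the counts are descriptions. The differences of *S100A4* (0.96, limma adjusted *p* = 0.0376) and *S100A11* (1.80, limma adjusted *p* = 0.0495) were near the threshold. The call for *S100A4* ended without any one of 7 libraries (H146 untreated or treated replicate 1 or 2, H82 untreated replicate 2 or 3, or H82 treated replicate 3), with adjusted *p* up to 0.0920. The call for *S100A11* held only without H146 treated replicate 3 or 4, H82 untreated replicate 3 or H82 treated replicate 3, and adjusted *p* reached 0.128 in the other 9 cases. With library weights the *S100A11* difference was 0.77 (0.256), and its call was also lost with the replicate block (0.0694), a pseudocount of 0.1 (0.0629), no filter (0.0845) and eBayes without trend (0.0517), while it held under the median of ratios (2.53, 0.00892) and quantile normalization (2.67, 0.00749). The *S100A4* call was lost with the block (0.0737) and with no filter (0.0572), and its difference was 1.65 under the median of ratios (0.000884) and 2.05 with quantile normalization (0.000350). That of *S100A16* (-0.76, limma adjusted *p* = 0.00952) became -0.13 under the median of ratios (0.642) and 0.055 with a pseudocount of 0.1 (0.879). *S100A2* (0.77, limma adjusted *p* = 0.0538), *S100B* (-0.74, 0.0566) and *S100A13* (-0.52, 0.197) were not past the threshold. That of *S100A2* passed in 13 alternatives, among them the median of ratios (1.30, adjusted *p* = 0.00477) and quantile normalization (adjusted *p* = 0.000293).

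The make-up of S100 RNA shifted in treated H82. The 10 genes summed to between 198 and 221 TPM in untreated H82, and to 134, 331 and 121 TPM in treated replicates 1, 2 and 3. *S100A16* made up 84.5%, 82.5% and 85.3% of that sum without treatment and 37.3%, 10.2% and 32.2% with it. *S100A11* went from at most 2.45% to 36.6%, 26.2% and 23.4%. In treated H82 *S100A6*, *S100A11*, *S100A16* and *S100A10* had means of 59.7 ± 85.6, 54.8 ± 29.7, 40.9 ± 8.37 and 26.1 ± 15.2 TPM (SD, n = 3), an order in which neighbours did not differ beyond their spread. In H146 the sum fell from between 469 and 618 TPM to between 247 and 310 TPM, and *S100A6* kept 80.5% to 95.0% of it in treated libraries, against 90.3% to 92.5% in untreated ones.

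**Figure D3:**
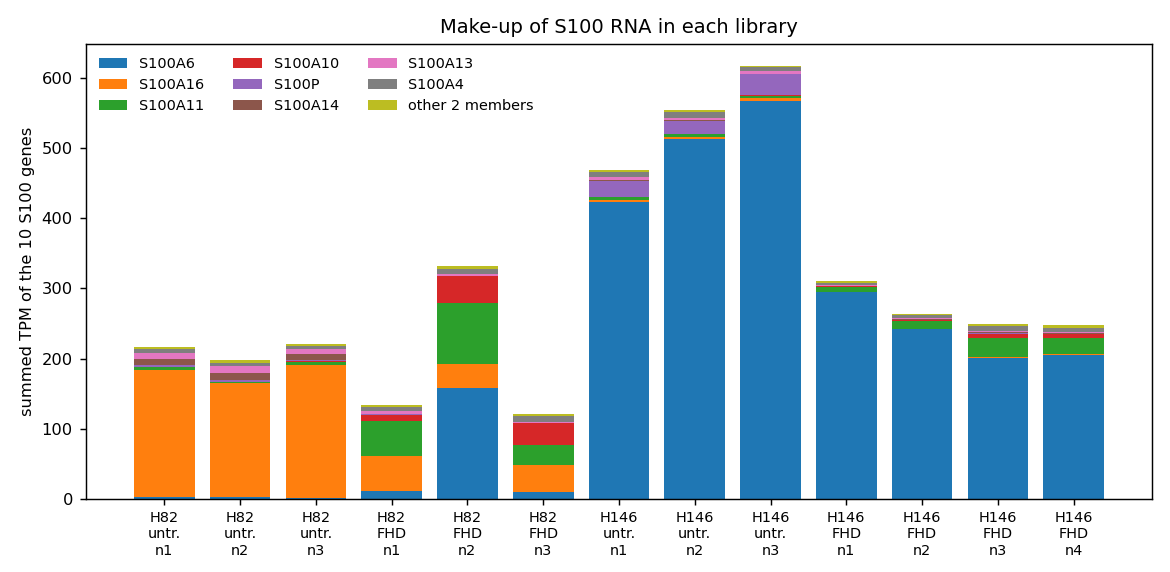
Summed TPM of the 10 S100 genes in each library, split by gene, for untreated (untr.) and FHD-286-treated (FHD) libraries n1 to n4. *S100A16* fills most of the bar in untreated H82 and *S100A6* in every H146 library, while treated H82 holds *S100A11*, *S100A10*, *S100A16* and *S100A6* side by side, with treated n2 the tallest of the H82 bars.

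Most of the other S100 genes stayed below the filter on low values. Of 10 other S100 genes, 3 were tested in H82, with 0 higher and 1 lower (*S100A1*; median log2FC -0.77), and 4 in H146, with 1 higher and 3 lower (median -1.11). The all-gene shares were 13.1% higher and 45.5% lower in H82 (median -0.56), and 32.5% and 15.5% in H146 (median 0.25). The higher one was *S100A9*, a partner of *S100A8* in myeloid cells (log2FC 1.45, limma adjusted *p* = 0.0119), which was tested only because of its treated libraries, and the lower ones were *S100A7* (-1.21), *S100A5* (-1.12) and *S100Z* (-1.11).

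Calls among S100 partners and receptors went in both directions, as they did over all genes. Of 27 such genes 20 were tested in H82, with 1 higher, 5 lower and 14 not past the threshold (median log2FC -0.35), and 20 in H146, with 4 higher, 5 lower and 11 not past it (median 0.047). In H82 both shares were below those of all genes (13.1% higher and 45.5% lower, median -0.56), and in H146 fewer were higher and more were lower than over all genes (32.5% and 15.5%, median 0.25). *ANXA2*, the partner of *S100A10*, was abundant in every group, with 85.7 ± 1.32 TPM before and 113 ± 27.8 TPM after treatment of H82 (SD over 3 libraries each), and its log2FC of 0.37 did not pass (limma adjusted *p* = 0.162). *ANXA1*, the partner of *S100A11*, was at 5.37 ± 0.188 TPM (SD, n = 3) in untreated H146 and at 52.8 ± 19.1 TPM (n = 4) after treatment, a log2FC of 3.02 (limma adjusted *p* = 4.67e-05). The receptor *AGER* was lower in treated H82, 3.77 ± 0.322 against 14.0 ± 1.33 TPM (SD over 3 libraries each), a log2FC of -1.65 (limma adjusted *p* = 0.000387). *PLAUR* (-1.07) and *AHNAK* (-0.81), a receptor of urokinase and a scaffold bound by the S100A10 and annexin A2 complex, were the next largest falls past the threshold there, and *ANXA11* was the one rise past it (0.85). In H146 the other leading rises past the threshold were *PPFIBP1* (0.90) and *PPP5C* (0.69), and the largest falls were the potassium channel *KCNK3* (-1.33), *PLAU* (-1.14), which encodes urokinase, and *EZR* (-0.83), the partner of *S100P*.

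In H82 the response changed along the chromosome 1 cluster within short distances. By the outermost annotated starts, *S100A10* and *S100A11* lie 54.0 kb apart, followed by a gap of 1488 kb to *S100A6*. From *S100A6* the next starts are those of *S100A4* after 13.9 kb, *S100A2* after 17.8 kb, *S100A16* after 45.3 kb, *S100A14* after 3.84 kb and *S100A13* after 14.4 kb. In H82 the log2FCs along this order were 4.21, 3.60, 3.22, 0.47, -0.047, -2.11, -3.02 and -1.31. In H146 *S100A10* was below the filter, *S100A11* was at 1.80, and the 6 values from *S100A6* to *S100A13* were all negative: -1.09, -0.48, -0.82, -1.35, -0.051 and -0.79. Of 71 other protein-coding genes found within 500 kb of a member, 44 were tested in H82, with 8 higher and 16 lower (median -0.28), and 44 in H146, with 15 higher and 4 lower (median 0.27). These shares are near those of all tested genes, 13.1% and 45.5% in H82 (median -0.56) and 32.5% and 15.5% in H146 (median 0.25), and are no result about the neighbours. On chromosome 1 there were 4 higher, 10 lower and 9 not past the threshold in H82, against 13.1% higher and 45.5% lower over all genes. In H146 there were 3 higher, 3 lower and 17 not past it, against 32.5% and 15.5%. These counts are descriptions. The largest falls among all neighbours in H82 were *CELF3* (-3.74), *SORCS2* (-2.58) and *KIAA0232* (-1.71), and the largest rises *BLOC1S4* (1.48), *CGN* (1.47) and *SNAPIN* (1.46). *SORCS2*, at most 0.511 TPM in treated H82, was tested there only because of its untreated libraries. In H146 *SLC39A1* (1.85), *PPP2R2C* (1.55) and *YBEY* (1.33) rose most, and *JAKMIP1* (-1.52), *TUFT1* (-1.42) and *GATAD2B* (-0.66) fell most.

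**Figure D4:**
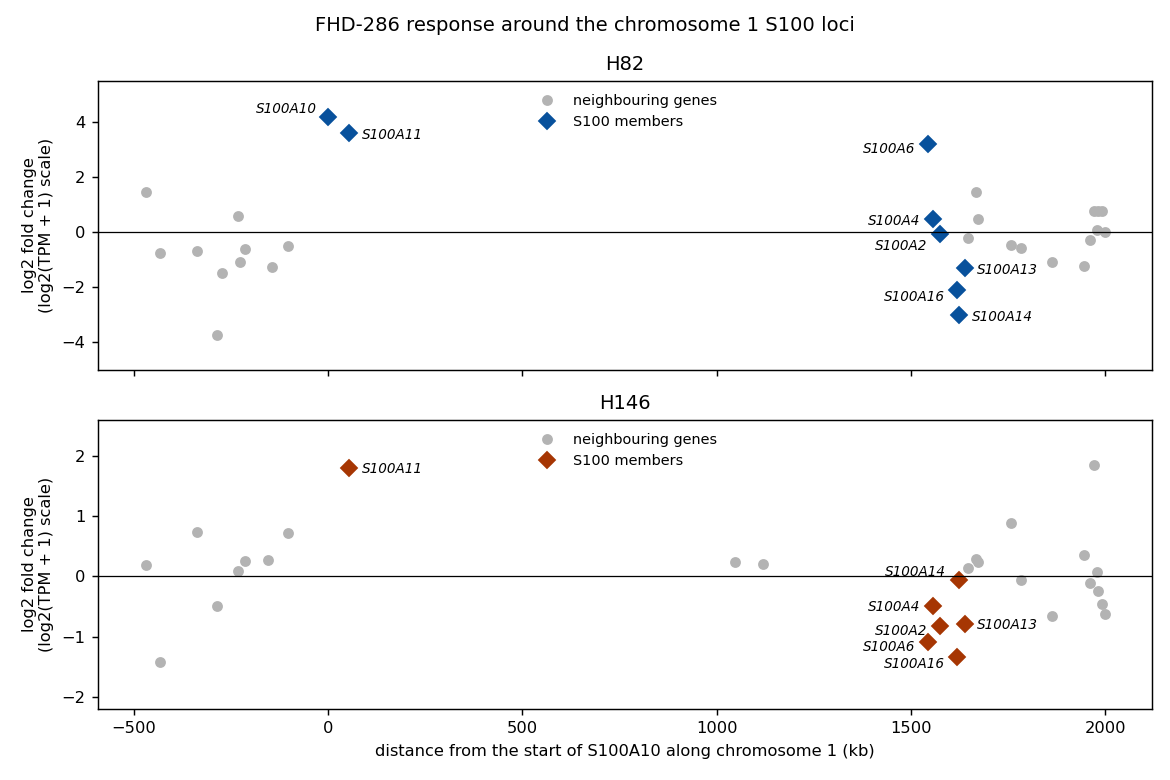
Log2FC with FHD-286 (log2(TPM + 1) scale, with a separate vertical range for each line) against distance in kb from the annotated start of *S100A10* on chromosome 1, for S100 members (diamonds) and other protein-coding genes within 500 kb of one (grey). In H82 the members run from 4.21 for *S100A10* to -3.02 for *S100A14*; *S100A10* is not shown in H146, where it was below the filter.

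The genes whose levels followed each changed member most closely over the 13 libraries were sought among 24374 genes by Pearson correlation of log2(TPM + 1). The libraries share 2 lines and a treatment, so these values describe patterns and carry no test. *S100A6* was most like *INSM1* (*r* = 0.990), *CDKN1A* (0.989) and *RIPPLY3* (0.985), a pattern of high levels in H146 and of treated replicate 2 above the rest of H82. *S100A10* was most like *COPRS* (0.987), *MRPL27* (0.985) and *PSMB3* (0.974), and *S100A11* like *AKR7A2* (0.956), *POLE4* (0.935) and *GGACT* (0.933). *S100A16* was most like *MXRA8* (0.994), *RP11-305N23.1* (0.993) and *PROM1* (0.989), *S100A14* like *TUBA3D* (0.988), *RP11-236P2.2* (0.987) and *AP003068.22* (0.987), and *S100A13* like *NCRNA00118* (0.966), *MBNL2* (0.952) and *ANKRD33* (0.948). *S100P* was most like *LOC283404* (0.985), *RP11-167H9.6* (0.983) and *PLA2G3* (0.982). Among the members themselves, *S100A10* and *S100A11* were the most alike (*r* = 0.913), and *S100A6* and *S100A16* were opposed (-0.906), as were *S100A2* and *S100B* (-0.906).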

How the data were processed

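RNA was sequenced from untreated and FHD-286-treated H82 and H146 cells, 13 libraries in all. Per the submitters' processing notes, the authors used Trim Galore 0.4.4, STAR, hg38, GENCODE release 28 and DESeq2, and deposited TPM values, 1 table per line with 56831 genes. TPM were used as deposited; reads per library are not in them, so no counting interval is given. Multi-mapped reads, strand and gene lengths are not given in the sources used here.

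Each line was fitted in R 4.3.3 with limma 3.58.1 (lmFit, eBayes with trend, two-sided) on log2(TPM + 1), for genes that reached 1 TPM in 3 or more libraries, with Benjamini-Hochberg adjustment over all tested genes and a threshold of 0.05. Differences between lines were the interaction of line and treatment over 13 libraries. Members below the filter had two-sided exact permutation tests (scipy 1.17.1). Python 3.11.15 with numpy 2.4.6, pandas 2.3.3 and matplotlib 3.10.9 handled tables and plots. The fit was tested on simulated data in which both groups had the spread of the untreated libraries. That test does not cover genes whose treated libraries spread more, such as *S100A6* in H82. The members and lists were chosen with earlier results of these data known. Named were all members, up to 3 leading rises and falls past the threshold in the other lists, the 3 genes most like each member that changed by at least 1 on the log2 scale, and genes that a member's value turns on. Alternatives were a pseudocount of 0.1, no filter, a mean TPM above 2, scaling by the median of ratios or by quantiles, a block on the replicate number, library weights (statmod 1.5.0), eBayes with no trend and each library left out. Leaving out a library while keeping the genes tested with all of them was added after seeing the data. Gene positions are from GENCODE release 44, 76 neighbours being annotated and 71 found by symbol. Promoter sequences are from RefSeq (GRCh38.p14). Accessibility and ChIP-seq data were not analysed here.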

Additional observations from a re-analysis of the deposited data

Results flagged for a closer look

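The treatment effect differed between H82 and H146 for 7 of the 10 members by the limma interaction test at an adjusted *p* under 0.05. The difference, H82 minus H146, was higher for 5 members, where 13.3% of all tested genes were, and lower for 2, where 46% were. The calls for *S100A4*, *S100A11* and *S100A16* did not hold in all alternatives. The effect in H82 minus that in H146, on the log2(TPM + 1) scale, was 4.31 for *S100A6*, which rose in H82 and fell in H146. It was 2.97 for *S100A10*, 1.80 for *S100A11* and 0.96 for *S100A4*. For *S100P* it was 2.89, with a gene that was abundant in untreated H146 only. *S100A10* entered this test through treated libraries alone and *S100P* through untreated ones alone, so both values are descriptions. The difference was -2.97 for *S100A14* and -0.76 for *S100A16*. The median difference of all 24374 tested genes was -0.75, so *S100A16* lay at that median. Dixon's test was applied to treated H146 alone, the only group of 4 libraries, and marked no library for any member. It seeks a single library apart from the rest, so it could not mark 2 libraries that stand apart together. Groups of 3 were not tested.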

How the results depend on the processing

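Over all alternatives, 576 single-member values kept their direction and side of the threshold, 55 lost the call, 28 gained it and 19 changed sign. The cause of these changes was not tested. Most fits with a library left out enter these totals both filtered anew and with the tested genes kept, with the same log2FC, so the values are not independent. Members higher in H82 numbered 5 with quantile normalization. In H146, members higher numbered 1 with a mean TPM above 2, with quantile normalization and with the replicate block, and members lower 3 with a mean TPM above 2. Members with a higher difference between lines numbered 3 with no filter and with the block. Those with a lower difference numbered 1 with a pseudocount of 0.1, the median of ratios or quantile normalization, and 4 with library weights. Over all genes, H82 had 4793 higher under the median of ratios, 5256 with quantile normalization and 3975 with library weights, and 4859 lower with quantile normalization. H146 had 4165 higher and 4917 lower under the median of ratios, and 4806 lower with library weights. Under that scaling the median of all genes was -0.14 in H82, where it had been -0.56, and -0.02 in H146, where it had been 0.25.

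Leaving out 1 library gave 2 to 3 members higher and 2 to 3 lower in H82, 1 to 2 members higher and 2 to 5 lower in H146, 3 to 5 higher and 2 to 4 lower for the difference between lines, 1676 to 3503 genes higher and 4291 to 9957 lower in H82 (up to 3820 higher with the tested genes kept), and 4287 to 7480 higher and 1812 to 3729 lower in H146 (up to 7561 and 3741 with them kept). When an untreated library was left out, the filter removed *S100A14* from H82, and *S100A2*, *S100A16* and *S100P* from H146. With the tested genes kept, every member called lower in a line stayed past the threshold there, whichever library was left out. For *S100A14* in H82, and *S100A2*, *S100A16* and *S100P* in H146, this is a description only. They were kept through the untreated libraries, where they are high.

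*S100A2* in H82 changed sign under the median of ratios (0.32), quantile normalization (0.96) and library weights (0.071), and without untreated replicate 2 (0.097), untreated replicate 3 (0.0086) or treated replicate 3 (0.10); with a library left out the lowest value was -0.25. *S100A14* in H146 was 0.22 with library weights and turned positive without untreated replicate 1 (0.020), treated replicate 1 (0.050) or treated replicate 2 (0.029); with a library left out the lowest value was -0.19. The difference between lines was 0.089 and 0.55 for *S100A13* under the median of ratios and quantile normalization, and 0.055 for *S100A16* with a pseudocount of 0.1. *S100B* in H82 was -0.047 without treated replicate 1 and at most 0.24 (treated replicate 3 left out). *S100A10* in H82 had no value without treated replicate 1, 2 or 3 because the filter removed it; with the tested genes kept, it ran from 3.83 to 4.81.

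Same-numbered libraries did not visibly deviate together, with correlations of -0.111 to 0.027 against -0.0379 to 0.107 for other pairs. Deviations from means of so few libraries cannot show whether the numbers pair them. With the replicate number as a block, H82 kept 3 members higher and 3 lower, with 2333 higher and 8625 lower genes over all, and H146 had 4749 and 2377.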
